A study of Mus musculus with 33 samples.

Results

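The comparison set 5 livers in which MYC and stabilised β-catenin had been switched on together against 5 wild-type livers, 4 days after the switch. These are 10 of the 33 samples of the series, taken as the 5 libraries labelled MYC+Ex3 and the 5 labelled WT that share 1 virus and 1 time point. A gene was tested where its RPKM, the number of reads scaled to gene length and library size, reached 1 in at least 3 of the 10 libraries, which held for 13231 of the 21671 genes in the table. The series also holds 5 MYC and 5 Ex3 livers given the same virus, liver tumours, and wild-type livers given 4-OHT. It addresses how MYC and β-catenin cooperate in the liver.

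All 10 mice were C57BL/6, aged 6 to 8 weeks, and each received 1e+11 particles of AAV8-TBG-CRE intravenously at 4 days before the liver was taken. The virus carries Cre recombinase under TBG, a hepatocyte promoter, so the wild-type livers also received virus and Cre and differed by the absence of the alleles. The MYC+Ex3 mice carried R26-lslMYC, a MYC transgene at the Rosa26 locus that is silent until Cre acts, and the β-catenin allele labelled Ex3, known as the allele whose exon 3 is removed by Cre. The labels give neither the share of hepatocytes that recombined, nor the species of the MYC transgene, nor the sex of the mice. The RNA came from whole liver tissue, which also holds endothelial, stellate, immune and bile duct cells that the virus does not target with this promoter.

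MYC is a transcription factor that pairs with MAX on DNA and is known for raising the genes of ribosome production, nucleotide synthesis and cell division. β-catenin is the effector of Wnt signalling: the part encoded by exon 3 carries the sites that mark it for degradation, and without them it accumulates and acts with TCF factors in the nucleus. In the normal liver this pathway is active around the central vein, where it maintains genes such as Glul and Cyp2e1, and it holds periportal genes low there.

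The 10 libraries held 3.73 to 7.29 M reads in genes (median 4.96 M), with 15916 to 18145 genes detected. From Xist and Ddx3y, 2 of the 5 WT livers and 4 of the 5 MYC+Ex3 livers were male, so sex moved with the comparison. In 3 livers of each group the keratins Krt5, Krt14 and Krt17, which mark squamous epithelium and not liver, summed to between 3.95 and 23.8 RPKM, against at most 0.26 in the other 4 livers. The most abundant gene of each library held 1466 to 1643 reads per kilobase whatever the depth, and Alb stood at 1196 to 1476 reads per kilobase in the WT livers and at 1122 to 1299 in the MYC+Ex3 livers. Whether differences of such genes are compressed was not tested.

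The targeted loci gave little to check the labels with. Myc read 0.748, 2.71, 4.11, 2.98 and 2.3 RPKM in WT livers 1 to 5 and 4.1, 5.23, 1.93, 4.34 and 4.1 RPKM in MYC+Ex3 livers 1 to 5. The groups overlapped, and the difference of 0.51 on the log2(RPKM + 1) scale (SE 0.284, limma adjusted p = 0.219) did not pass the test. Ctnnb1, which encodes β-catenin, stood at 121 to 134 RPKM in the WT livers and 107 to 141 RPKM in the MYC+Ex3 livers, a difference of -0.08 (SE 0.099, adjusted p = 0.627). Values per gene do not show the loss of an exon, and whether reads of the transgene count toward Myc is not given in the sources used here.

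Of the 13231 genes tested, 2248 were higher in the MYC+Ex3 livers (17%) and 785 were lower (5.93%) by limma at an adjusted p under 0.05, 22.9% together. The rises were also larger: at a difference of at least 1 on the log2 scale, 874 genes were higher and 88 lower. Differences are on the log2(RPKM + 1) scale throughout, which understates the change of genes at low levels. In 1836 genes (13.9%) every MYC+Ex3 liver lay above every WT liver, and in 498 genes (3.76%) every one lay below. The median difference over all genes tested was 0.05. The calls moved with the livers compared. With a sex term 1715 genes were higher (13%) and 446 lower (3.37%), and among the 6 males 1153 (8.71%) and 289 (2.18%). The 4 keratin-free livers gave 2258 higher (17.1%) and 1488 lower (11.2%), and the 6 keratin-bearing livers 1355 (10.2%) and 194 (1.47%). After each library was rescaled by its median ratio, 1934 genes were higher and 1212 lower, so the share of higher calls moved from 74.1% to 61.5%. The authors' deposited table calls 2240 genes higher and 1573 lower at the same threshold, and of the 12879 genes with a p-value in both, 2789 were called by both, all in the same direction (93.4% of the limma calls and 74.6% of the deposited ones).

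**Figure D1:**
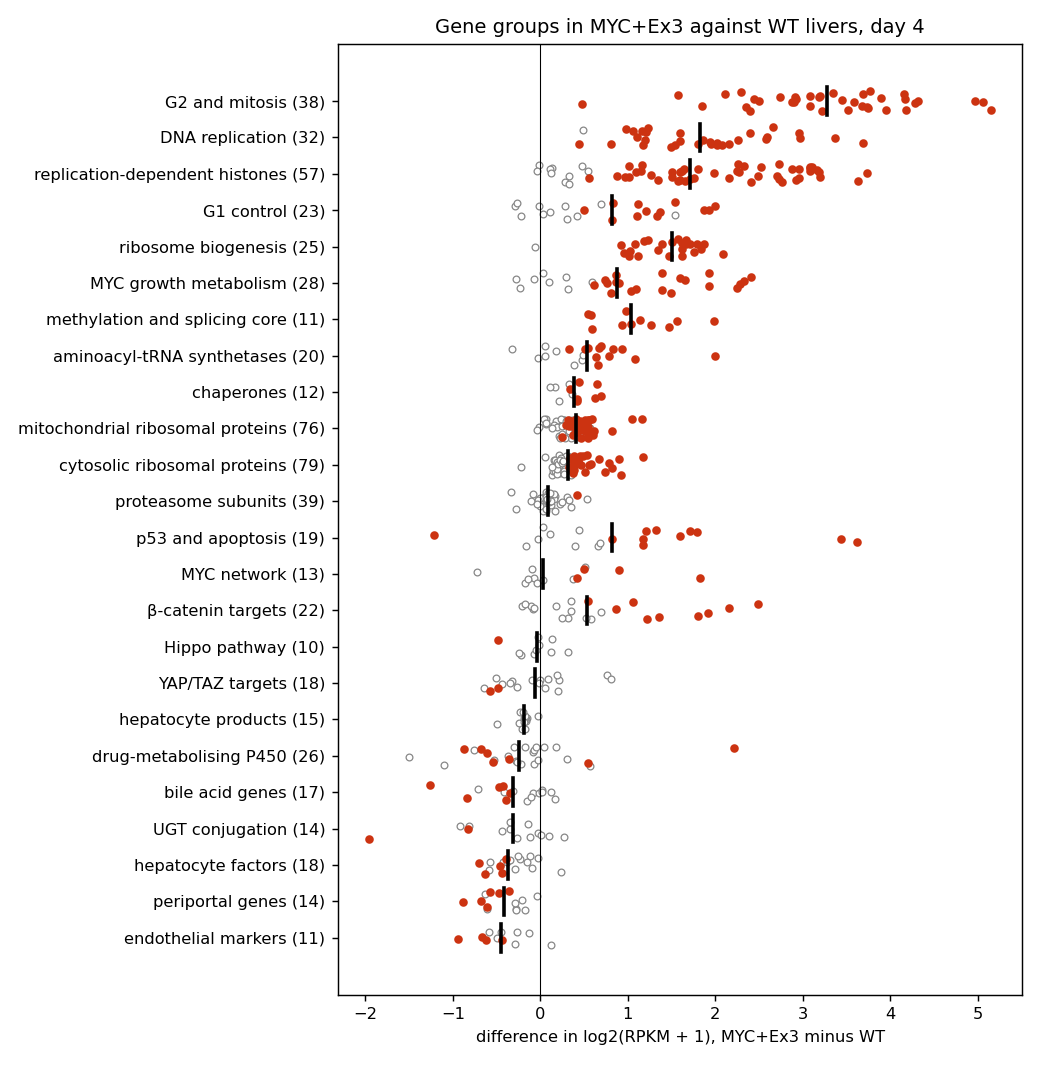
Difference between the means of log2(RPKM + 1) in 5 MYC+Ex3 and 5 WT livers (horizontal axis) for each tested gene of 24 groups, with the number of genes in brackets; filled points passed the limma test, open points did not, and the black bar is the group's median. Mitosis, replication and ribosome biogenesis lie to the right, and periportal and endothelial genes lie mostly left of 0.

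The genes of G2 and mitosis were nearly silent in the wild-type livers and rose in all MYC+Ex3 livers. All 38 listed genes were called higher, with a median difference of 3.28, and in all 38 the groups did not overlap. Their summed level was 63.1, 41.9, 63.9, 64.2 and 78 RPKM in WT livers 1 to 5 and 1374, 1370, 723, 876 and 906 RPKM in MYC+Ex3 livers 1 to 5. In bulk tissue a larger number of dividing cells and more RNA per dividing cell cannot be told apart.

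Ckap2, which encodes a spindle protein, read 0.786, 0.518, 0.57, 1.34 and 0.614 RPKM in the WT livers and 68.4, 68.8, 48.1, 39.3 and 67 RPKM in the MYC+Ex3 livers, a difference of 5.05 (SE 0.191, adjusted p = 2.32e-08). The lowest MYC+Ex3 liver was far above the highest WT liver, in which 6 to 17 reads stood behind each value. Ccnb1, the B-type cyclin that drives entry into mitosis, went from 0.0969 to 2.07 RPKM in the WT livers to 53.9 to 91.6 RPKM, the largest rise among the genes named by rule (5.15, SE 0.271, adjusted p = 1.74e-07). Cdc20, the activator of the anaphase-promoting complex, read 0.611 to 1.78 RPKM in the WT livers and 92.7, 88.5, 42.6, 47.9 and 47 RPKM in the MYC+Ex3 livers, with a difference of 4.97. MYC+Ex3 livers 1 and 2 stood above the other 3 for Cdc20, as they did for the sum of the whole group. These are the keratin-free libraries of the group and its deepest, at 6.55 and 7.29 M reads, and the part of either in their higher values was not tested.

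The partner kinase Cdk1 rose from 0.628 to 1.87 RPKM to 26.5 to 35.3 RPKM, a difference of 3.94 with SE 0.184. Ccna2, the A-type cyclin of S and G2 phase, rose by 4.31 and Ccnb2, a second B-type cyclin, by 4.16. Mki67, the usual marker of cycling cells, rose from 0.936 to 4.67 RPKM to 47.5 to 89.8 RPKM (4.29), and Top2a, which untangles chromosomes, from 0.927 to 2.95 RPKM to 26.4 to 63.1 RPKM (4.17). Others of the largest rises were Cdca3 (4.83), the kinetochore gene Knstrn (4.34), Esco2 for the acetyltransferase of cohesin (4.31), the mitotic kinase gene Pbk (4.24) and the kinesin gene Kif20a (4.16). The smallest of the group was Pttg1, which encodes securin and was already at 8.99 to 12.9 RPKM in the WT livers (0.48, adjusted p = 0.0244); its call was lost without MYC+Ex3 liver 1 or WT liver 4 and in 3 of the 13 other settings tried.

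The promoters of 4 of these genes are shown because they are among the largest rises and hold the sequences known from cell-cycle promoters. They are the RefSeq sequences of build GRCm38.p6, from 250 bases before to 50 bases after the start, written 5′ to 3′ on the gene's own strand: Ckap2 at chr8:22185770-22186069 (minus strand), Cdc20 at chr4:118437294-118437593 (minus), Cdk1 at chr10:69352863-69353162 (minus) and Ccnb1 at chr13:100786437-100786736 (minus). Capitals mark TTTGAA, the letters of the cell-cycle homology region, and CCAAT, on either strand.
Ckap2: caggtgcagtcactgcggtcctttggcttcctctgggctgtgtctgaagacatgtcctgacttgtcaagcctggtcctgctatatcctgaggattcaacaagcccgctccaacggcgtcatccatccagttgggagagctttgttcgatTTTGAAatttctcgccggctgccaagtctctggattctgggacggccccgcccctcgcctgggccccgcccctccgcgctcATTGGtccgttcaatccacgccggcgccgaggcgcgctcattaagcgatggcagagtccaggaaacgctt
Cdc20: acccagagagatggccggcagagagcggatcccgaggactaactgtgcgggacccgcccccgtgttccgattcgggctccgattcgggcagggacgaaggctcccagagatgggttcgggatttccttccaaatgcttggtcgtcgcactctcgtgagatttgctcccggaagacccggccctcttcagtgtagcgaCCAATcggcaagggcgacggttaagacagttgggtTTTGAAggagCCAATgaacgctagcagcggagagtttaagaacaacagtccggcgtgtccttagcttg
Cdk1: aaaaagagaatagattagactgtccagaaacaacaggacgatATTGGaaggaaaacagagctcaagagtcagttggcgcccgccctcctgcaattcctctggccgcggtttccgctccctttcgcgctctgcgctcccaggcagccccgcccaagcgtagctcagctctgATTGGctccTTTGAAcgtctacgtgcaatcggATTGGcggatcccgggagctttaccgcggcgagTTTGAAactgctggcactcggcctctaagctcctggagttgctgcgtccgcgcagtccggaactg
Ccnb1: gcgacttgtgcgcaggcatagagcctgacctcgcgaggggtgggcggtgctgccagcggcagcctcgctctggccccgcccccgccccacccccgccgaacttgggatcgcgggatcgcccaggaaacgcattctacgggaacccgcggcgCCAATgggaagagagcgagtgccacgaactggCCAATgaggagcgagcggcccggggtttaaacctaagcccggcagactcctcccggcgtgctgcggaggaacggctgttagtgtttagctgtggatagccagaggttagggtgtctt
Cdk1 held TTTGAA 2 times and CCAAT 3 times, and Ccnb1 held 2 CCAAT and no TTTGAA in this window. Promoters were found for 31 of the 38 genes of the group: TTTGAA stood in 22 (71%) and CCAAT in 25 (80.6%). Among 27025 promoters of the same length the shares were 18.1% and 37.9%, and among the promoters of genes called higher 16.8% and 42.4%. The letters of the motifs do not overlap one another, and a match is only a match of letters.

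Genes of DNA replication followed, from the loading of origins to the fork. Of 32 listed genes 31 were called higher and none lower, with a median difference of 1.83. Mcm5, a subunit of the replicative helicase, read 2.66, 0.577, 2.21, 2.47 and 2.87 RPKM in the WT livers and 30.5, 39.8, 16.3, 53.2 and 23 RPKM in the MYC+Ex3 livers (3.37, SE 0.32, adjusted p = 1.65e-05). Gins2, a subunit of the same helicase complex, rose from 0 to 1.75 RPKM to 18.8 to 34.2 RPKM (3.69). Rrm2, which encodes the small subunit of ribonucleotide reductase and so supplies deoxynucleotides, rose by 2.95, and Pcna, the sliding clamp, by 1.06 from a level of 51.7 to 55.7 RPKM in the WT livers. The exception was Mcm10, which read 3.85 to 15.7 RPKM in the WT livers and 5.82 to 18.1 RPKM in the MYC+Ex3 livers (0.49, adjusted p = 0.347).

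The livers differed in their balance of replication and mitosis. MYC+Ex3 liver 4 had the highest sum of the 32 replication genes, at 1103 RPKM against 573 to 957 RPKM in the other 4, but its mitosis sum of 876 RPKM was below those of livers 1 and 2. Liver 3 had the lowest sum of both groups. All 5 were above the highest WT liver, at 287 RPKM for replication.

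Of the 23 tested genes that control G1, 12 were called higher and none lower (median 0.81). Ccne1, the E-type cyclin, rose from 1.04 to 3.15 RPKM to 4.56 to 21.2 RPKM (1.99, SE 0.329, adjusted p = 0.00102). Cdk4 rose by 1.11 and Cdk6 by 1.34, which encode the kinases that D-type cyclins activate, and E2f2, for a transcription factor of S-phase genes, rose by 1.87. Among the inhibitors, Cdkn2c (p18) rose by 1.93, from 5.82 to 9.72 RPKM to 23 to 41.1 RPKM. Cdkn1a (p21) read 20.1, 1.82, 12.3, 40 and 21.8 RPKM in the WT livers and 52.8, 60.4, 37.5, 41 and 28 RPKM in the MYC+Ex3 livers, with overlap, and its difference of 1.54 did not pass (SE 0.559, adjusted p = 0.0668). Ccnd1, for cyclin D1 and also a known β-catenin target, was at 17 to 50.2 RPKM against 36.1 to 63.3 RPKM (0.70, adjusted p = 0.097).

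p53 is the stress-responsive factor that halts the cycle or triggers death, and MYC activation is a known trigger of it. Of 10 listed genes of p53 and its targets 8 were called higher and none lower (median 1.25). Phlda3, a target that restrains AKT, read 4.31, 2.91, 3.6, 2.52 and 3.89 RPKM in the WT livers and 57, 60.9, 49.8, 48 and 49.4 RPKM in the MYC+Ex3 livers, a difference of 3.61 (SE 0.139, adjusted p = 2.32e-08) with no overlap. Eda2r, a receptor gene, rose from 0.685 to 2.58 RPKM to 14.3 to 37.9 RPKM (3.44). Trp53 itself rose by 1.32, Mdm2, its ubiquitin ligase and target, by 1.18 and Ccng1 by 0.81.

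The genes of apoptosis did not move as a group: of 9 listed, 2 were higher and 1 lower, with a median of 0.11. Over all genes 17% were higher and 5.93% lower, so these counts were near those of any genes. Bax, which permeabilises mitochondria, rose from 9.39 to 32.3 RPKM to 51.7 to 67.7 RPKM (1.71, adjusted p = 0.000278). Bbc3 (Puma) was called higher (1.21, adjusted p = 0.0224) with overlapping groups, since WT liver 1 at 15.3 RPKM lay above MYC+Ex3 livers 3 to 5. Bmf was called lower (-1.22, adjusted p = 0.0438) with 3.58 to 15.9 RPKM against 1.42 to 4.43 RPKM. Both calls were lost with a sex term, and without 4 (Bbc3) or 5 (Bmf) of the single livers.

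Ribosome biogenesis, the production of ribosomal RNA and its assembly in the nucleolus, rose as a block. Of 25 listed genes 24 were called higher, with no overlap in any of the 24, and the median difference was 1.5. Nop56, a core protein of box C/D particles that methylate ribosomal RNA, read 28.8, 20.9, 31.4, 27.1 and 23 RPKM in the WT livers and 121, 124, 119, 112 and 93.9 RPKM in the MYC+Ex3 livers (2.09, SE 0.127, adjusted p = 5.3e-07). Dkc1, the pseudouridine synthase, read 11.6 to 16 RPKM against 50.1 to 55.5 RPKM (1.83), Ncl (nucleolin) 15.3 to 24.2 RPKM against 52.5 to 66.5 RPKM (1.62), and Ppan rose by 1.87. The single gene not called was Rcl1, at 74.5 to 101 RPKM in the WT livers and 78.6 to 94.4 RPKM in the MYC+Ex3 livers (-0.06, adjusted p = 0.707). The 5 MYC+Ex3 livers lay closer together here than for mitosis: the sum over the group was 1455, 1480, 1253, 1286 and 1088 RPKM, against 476 to 587 RPKM in the WT livers.

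**Figure D2:**
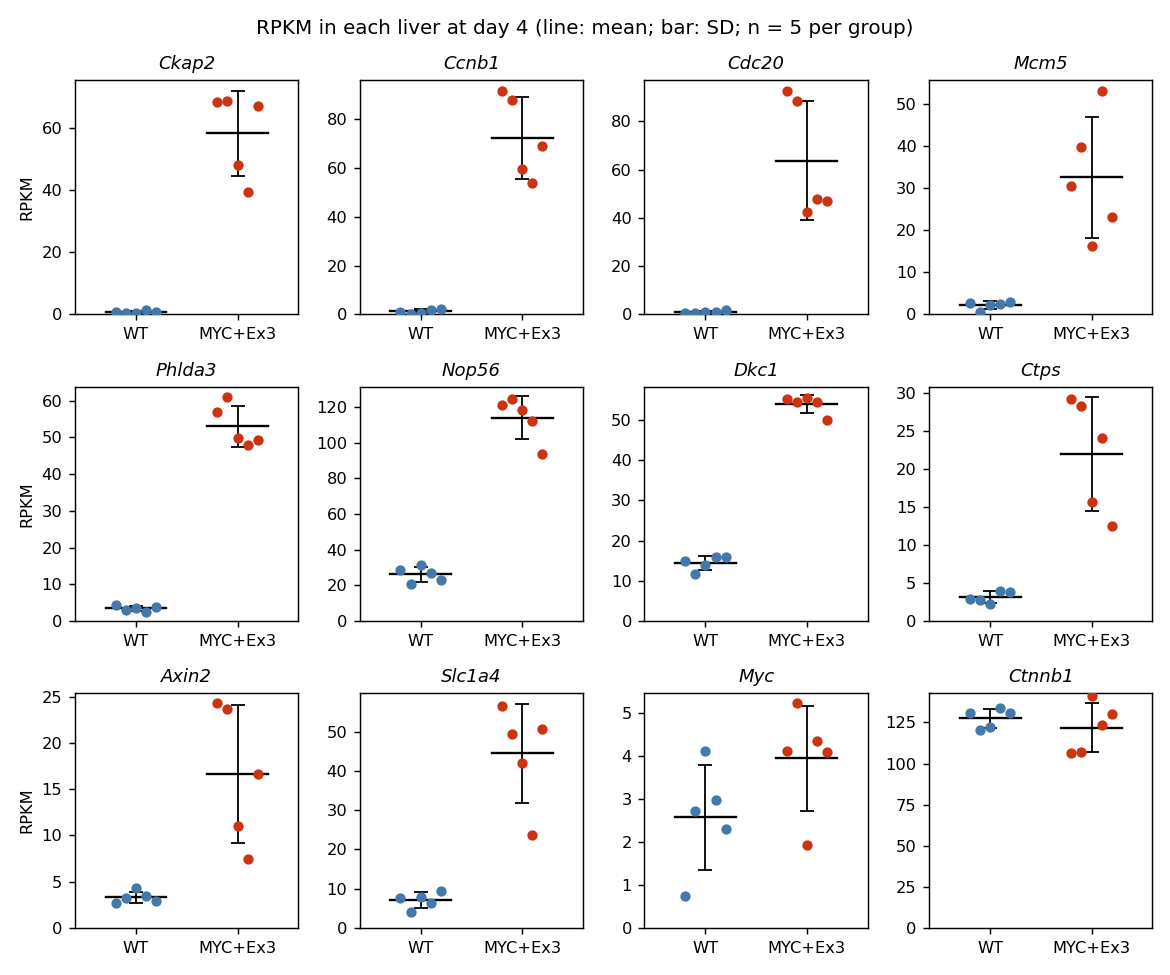
RPKM (vertical axes, linear from 0) in each of 5 WT and 5 MYC+Ex3 livers for 12 genes; the line is the mean and the bar the SD. The groups are apart for the 10 genes from Ckap2 to Slc1a4, and overlap for Myc and Ctnnb1.

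Around MYC itself, 4 of 13 genes of the network were called higher and none lower, against 2 higher after median-ratio rescaling or among the males. Max, its partner, rose from 19.4 to 22.9 RPKM to 34.2 to 45.9 RPKM (0.90, SE 0.108, adjusted p = 9.99e-05), and Mxd3, which competes for MAX, from 0.351 to 1.02 RPKM to 4.52 to 5.89 RPKM (1.82). The paralogue Mycl read 4.15 to 13.7 RPKM against 3.56 to 7.49 RPKM (-0.72, adjusted p = 0.0702). The promoters of Max, at chr12:76962199-76962498 (minus strand), and of the ribosome assembly gene Pes1, at chr11:3963725-3964024 (plus strand), are shown as 2 called genes that hold CACGTG, the E-box known to bind MYC with MAX. Capitals mark that motif, with build and window as above.
Max: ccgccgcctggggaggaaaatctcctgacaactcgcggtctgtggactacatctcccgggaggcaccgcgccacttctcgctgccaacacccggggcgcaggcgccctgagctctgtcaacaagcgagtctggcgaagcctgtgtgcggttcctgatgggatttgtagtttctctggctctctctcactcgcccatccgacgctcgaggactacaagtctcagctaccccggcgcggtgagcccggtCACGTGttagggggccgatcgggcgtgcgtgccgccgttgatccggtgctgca
Pes1: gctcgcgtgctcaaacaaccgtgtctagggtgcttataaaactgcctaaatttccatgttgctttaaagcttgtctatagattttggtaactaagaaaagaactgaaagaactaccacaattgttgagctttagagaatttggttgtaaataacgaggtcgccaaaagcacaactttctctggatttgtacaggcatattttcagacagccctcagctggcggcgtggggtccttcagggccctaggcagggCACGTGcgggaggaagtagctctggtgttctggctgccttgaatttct
Pes1 rose from 13.6 to 27 RPKM to 32.1 to 49.2 RPKM (1.08, SE 0.179, adjusted p = 0.00106). CACGTG stood in 5 of the 20 promoters found for the ribosome biogenesis genes (25%), in 13.5% of those of genes called higher, in 7.91% of those of genes called lower, in 10.2% of those of genes tested and in 7.24% of all 27025 promoters.

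Metabolic genes known as MYC targets rose where they make nucleotides and polyamines, and mostly not where they serve glycolysis. Of 28 tested, 20 were higher and none lower (median 0.88; 13 higher among the keratin-bearing livers): 11 of 13 for nucleotide synthesis, 4 of 5 for polyamines, 4 of 5 for transport and 1 of 5 for glycolysis. Ctps, for CTP synthase, rose from 2.25 to 4.03 RPKM to 29.3, 28.3, 15.7, 24.1 and 12.6 RPKM (2.41, SE 0.235, adjusted p = 2.01e-05). Cad, for the enzyme that starts pyrimidine synthesis, read 3.48 to 6.46 RPKM in the WT livers and 49.8, 54.3, 13.8, 22.5 and 13.1 RPKM in the MYC+Ex3 livers (2.25). Livers 1 and 2 were far above the other 3 for Cad. Slc19a1, the folate carrier, rose by 2.33 and Srm, for spermidine synthase, by 1.93. Odc1, which makes putrescine, rose by 0.90 from 42.2 to 88.9 RPKM to 85.8 to 120 RPKM, with overlap. Hk2 read 0.896 to 1.68 RPKM against 0.57 to 2.42 RPKM (-0.23, adjusted p = 0.47).

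All 11 genes of the core of arginine methylation and splicing were called higher (median 1.03), among them the methyltransferase genes Prmt1 (1.98) and Prmt5 (1.47) and Snrpa1 of the U2 particle (1.56). Of the 8 subunits of the CCT chaperonin, which folds actin and tubulin, 7 were higher (median 0.43), with Cct3 at 38.5 to 45.5 RPKM against 60.2 to 74.4 RPKM (0.69), while none of 4 mitochondrial chaperones was called. The CCT count was 4 of 8 after median-ratio rescaling and 3 of 8 among the males. Of 20 cytosolic aminoacyl-tRNA synthetases, which charge tRNAs, 12 were higher and none lower (median 0.53), and 5 among the keratin-bearing livers. Vars, for valyl-tRNA synthetase, rose from 6.9 to 11.1 RPKM to 69.3, 70.6, 22, 36 and 21.2 RPKM (1.99, SE 0.323), again with livers 1 and 2 on top.

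The proteins of the ribosome itself moved less than the factors that build it. Of 79 cytosolic ribosomal protein genes 32 were called higher and none lower (median 0.32), beside 17% of all genes higher. The count was 11 after median-ratio rescaling, beside 1934 of all 13231 genes. It was 7 among the keratin-free livers (17.1% of all genes) and 5 among the males (8.71%). In those settings the list was called no more often than all genes. In others it was called more often, with 20 among the keratin-bearing livers (10.2% of all genes) and 15 with a sex term (13%). Of 76 mitochondrial ribosomal protein genes 34 were higher (median 0.4), against 21 after rescaling and 7 among the males, where 8.71% of all genes were higher. Among the keratin-bearing livers 23 of them were higher, and with a sex term 16. Proteasome subunits lay near the median of all genes, with 1 of 39 called and a median of 0.09. Ribosomal protein genes have many processed pseudogenes, between which the counting could split reads.

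β-catenin targets divided by kind. Of 22 tested genes 9 were called higher and none lower (median 0.53): 6 of 8 genes of the Wnt feedback loop and 3 of 14 pericentral genes. Over all genes 17% were higher, so the pericentral count was near that of any genes. Among the keratin-bearing livers 2 of the 8 feedback genes were called, beside 10.2% of all genes. Axin2, a scaffold of the complex that degrades β-catenin and the usual readout of the pathway, read 2.73, 3.24, 4.3, 3.4 and 2.92 RPKM in the WT livers and 24.3, 23.7, 11.1, 7.49 and 16.6 RPKM in the MYC+Ex3 livers (1.92, SE 0.278, adjusted p = 0.000396). The groups did not overlap, and the 5 MYC+Ex3 livers spread over a wider range than for the ribosome genes.

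The transcription factor gene Sp5 rose from 0.49 to 1.73 RPKM to 12.3, 7.43, 8.9, 3.74 and 7.33 RPKM (2.16, SE 0.263, adjusted p = 0.000114). Lgr5, the receptor for R-spondin, read 1.81 to 6.72 RPKM against 5.64 to 14.6 RPKM (1.35, adjusted p = 0.00575), with WT liver 5 above MYC+Ex3 liver 4. Rnf43 and Znrf3, for the ligases that remove Wnt receptors, rose by 1.21 and 1.06, and Tcf7, for a partner of β-catenin on DNA, by 0.86. The calls of Lgr5, Rnf43, Znrf3 and Tcf7 were lost in the keratin-bearing livers (adjusted p = 0.121, 0.0854, 0.0619 and 0.0723), and that of Tcf7 also among the males (0.0598). Notum, for a secreted Wnt inhibitor, read 22.4 to 59.1 RPKM against 33.9 to 84.7 RPKM and did not pass (0.58, adjusted p = 0.123).

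The promoters of Sp5, at chr2:70474673-70474972 (plus strand), and Axin2, at chr11:108920099-108920398 (plus strand), are shown as those of the 2 feedback genes with the largest rises. Capitals mark CTTTGAT, the letters of a TCF site, and CCAAT, on either strand.
Sp5: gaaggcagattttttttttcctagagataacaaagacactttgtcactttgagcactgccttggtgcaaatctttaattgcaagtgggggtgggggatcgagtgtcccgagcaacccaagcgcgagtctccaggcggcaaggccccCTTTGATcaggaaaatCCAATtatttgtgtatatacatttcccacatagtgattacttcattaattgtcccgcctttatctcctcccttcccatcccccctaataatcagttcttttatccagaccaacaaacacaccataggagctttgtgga
Axin2: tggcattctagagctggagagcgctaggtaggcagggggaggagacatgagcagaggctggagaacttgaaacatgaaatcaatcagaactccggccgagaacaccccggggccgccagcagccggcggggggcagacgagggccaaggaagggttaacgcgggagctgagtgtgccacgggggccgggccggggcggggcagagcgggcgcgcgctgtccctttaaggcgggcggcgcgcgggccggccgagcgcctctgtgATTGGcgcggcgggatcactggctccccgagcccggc
CTTTGAT stood in Sp5 and not in this window of Axin2. It was found in 3 of the 16 promoters of the β-catenin target list (18.8%) and in 3.72% of all 27025.

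The 3 pericentral genes called were Slc1a4, Rhbg and Cyp2a5. Slc1a4, a transporter of neutral amino acids, read 7.52, 4.12, 7.77, 6.23 and 9.54 RPKM in the WT livers and 56.5, 49.4, 42.1, 23.8 and 50.7 RPKM in the MYC+Ex3 livers (2.48, SE 0.243, adjusted p = 2.01e-05). Rhbg, an ammonium transporter, read 8.31 to 19.5 RPKM against 49, 56.1, 51.3, 18.7 and 68.4 RPKM (1.80, SE 0.317, adjusted p = 0.00154), with liver 4 inside the WT range. Cyp2a5, the coumarin hydroxylase, was called at 0.54 (adjusted p = 0.035), but the call was lost in 5 of 13 other settings and without any 1 of 7 livers, and near-identical paralogues could share its reads.

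The enzymes that define the pericentral layer did not pass. Glul, glutamine synthetase, read 173 to 207 RPKM in the WT livers and 208, 189, 315, 192 and 267 RPKM in the MYC+Ex3 livers (0.25, SE 0.143, adjusted p = 0.229), and Cyp2e1 read 231 to 254 RPKM against 184 to 311 RPKM (-0.08, adjusted p = 0.72). Glul stood at 870 to 1144 reads per kilobase in the WT livers and 974 to 1376 in the MYC+Ex3 livers. In RPKM both genes were highest in MYC+Ex3 liver 3, the library with the fewest reads. Tbx3, a repressor known as a β-catenin target in hepatocytes, read 8.66 to 11.1 RPKM in the WT livers and 19.7, 18.4, 19, 6.1 and 18.1 RPKM in the MYC+Ex3 livers (0.52, adjusted p = 0.178). Tbx3 was above all WT livers in 4 MYC+Ex3 livers and below them in liver 4.

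Liver 4 was the lowest of the MYC+Ex3 livers for Axin2, Sp5, Slc1a4, Rhbg, Lgr5 and Tbx3 alike. The 9 feedback genes summed to 163, 155, 139, 88.2 and 195 RPKM in MYC+Ex3 livers 1 to 5, against 44.5 to 98.8 RPKM in the WT livers. The same liver had the highest replication sum. Of the proteins that form and degrade the β-catenin complex, 1 of 16 genes was called: Cdh2, N-cadherin, rose from 30.8 to 40.8 RPKM to 40.9 to 51.8 RPKM (0.39, adjusted p = 0.0221). That call was lost after median-ratio rescaling, in the fit of all 20 livers, among the males, among the keratin-bearing livers and without MYC+Ex3 liver 1 or 2 or WT liver 5.

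The MYC livers carried the MYC transgene without Ex3 and received the same virus; 1 of the 5 bore keratin RNA, against 3 of the 5 MYC+Ex3 livers, and 3 read as male, against 4. Directly compared within a fit of all 20 livers, MYC+Ex3 livers exceeded MYC livers in 26 of 13688 genes (0.19%) and fell below them in 0 in limma at an adjusted p under 0.05. Before adjustment 461 genes (3.37%) had a p under 0.05. Of the 22 tested β-catenin targets 9 were among the 26. The MYC livers were themselves lower than the WT livers in 9 of these 22 and higher in 0 (median -0.41). Over all 13688 genes 734 were lower in that contrast. The direct difference thus also holds what was lower in the MYC livers. Axin2 read 0.513 to 6.99 RPKM (median 2.49) in the MYC livers, 7.49 to 24.3 (median 16.6) in the MYC+Ex3 livers and 10.6 to 24.9 (median 19.7) in the Ex3 livers. Its direct difference from the MYC livers was 2.18 (SE 0.351, adjusted p = 0.00906), that of Sp5 2.17 (adjusted p = 0.00176) and that of Rhbg 2.14 (adjusted p = 0.00353). Slc1a2, the glutamate transporter of pericentral hepatocytes, was at 2.04 to 25.4 RPKM in the MYC livers and at 38.9 to 130 RPKM in the MYC+Ex3 livers (2.40, adjusted p = 0.0346), although it did not differ by the test from the WT livers (0.35, adjusted p = 0.485).

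The count of 26 rested on few livers: it was 7 without MYC liver 1 or 3 or MYC+Ex3 liver 1 or 3, 8 to 10 without MYC+Ex3 liver 2 or 5 or MYC liver 4, 17 without MYC liver 2 and 37, of which 4 lower, without MYC+Ex3 liver 4. It was 39 with a sex term, 34 (1 lower) with a keratin term, 11 with a pseudocount of 0.1 and 10 with no filter on low values. Axin2, Sp5, Rhbg, Slc1a5 and Teddm2 were among the 6 genes called in all 15 alternatives. MYC liver 5 carried both Xist at 86.1 RPKM and Ddx3y at 4.74 RPKM, and the count without it was 25. No gene of the mitosis, replication, ribosome biogenesis, splicing or p53 lists differed by the test between MYC+Ex3 and MYC livers, and the medians of those lists in this contrast were 0.40, 0.15, 0.04, 0.04 and 0.15.

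Slc1a5, the glutamine transporter, was higher in the livers with both alleles than in those with either. It read 3.44, 1.3, 1.79, 1.57 and 2.57 RPKM in the WT livers and 14.5, 17.4, 11.1, 12.9 and 13.9 RPKM in the MYC+Ex3 livers (2.28, SE 0.196, adjusted p = 7.27e-06), with 3.64 to 6.35 RPKM in the MYC livers and 3.35 to 7.8 RPKM in the Ex3 livers. MYC+Ex3 exceeded MYC by 1.32 (adjusted p = 0.00639) and Ex3 by 1.05 (adjusted p = 0.000866), and the interaction of the 2 alleles was 0.09 (SE 0.29, adjusted p = 1). Cox6b2, for a subunit of cytochrome oxidase usually found in testis, was also highest with both alleles, but low in the Ex3 livers: 0 to 0.819 RPKM in WT (at most 3 reads), 0 to 1.71 in Ex3, 2.23 to 4.41 in MYC and 9.42 to 23.5 RPKM in MYC+Ex3 livers, with a difference from MYC of 1.74 (adjusted p = 0.0058).

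**Figure D3:**
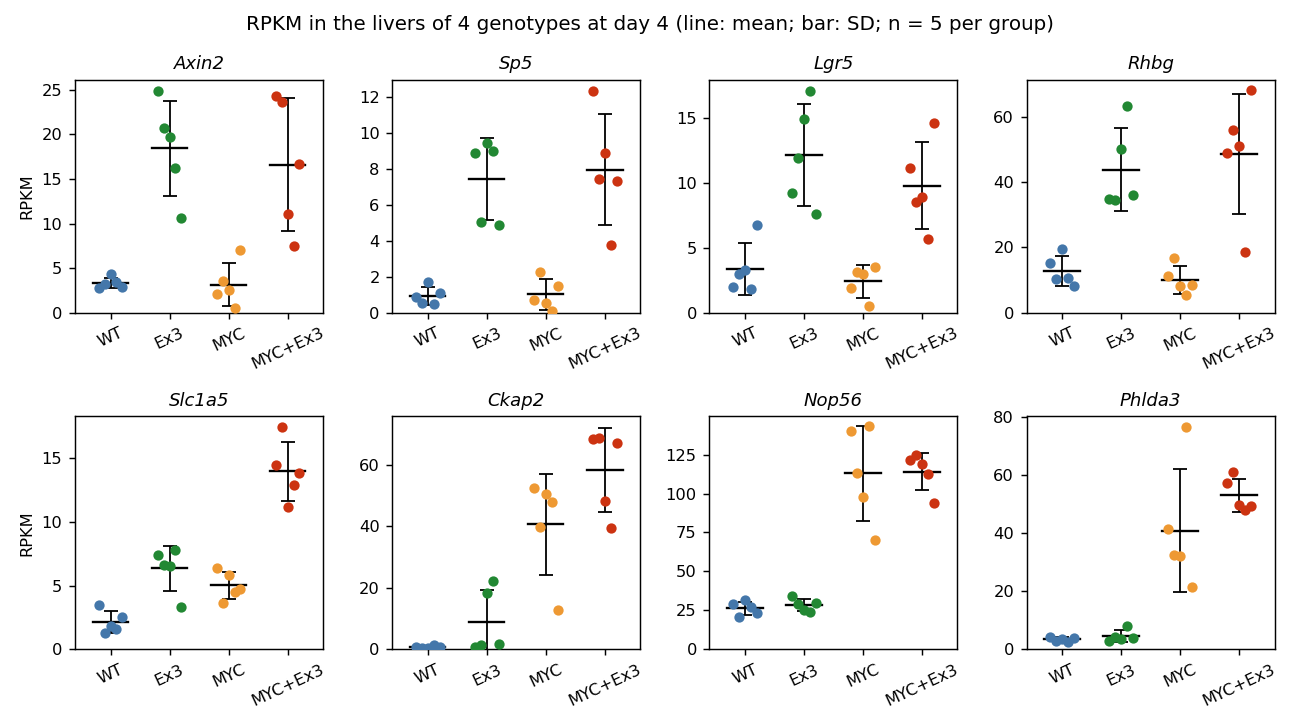
RPKM (vertical axes, linear from 0) in each liver of the 4 genotypes at day 4 for 8 genes; the line is the mean and the bar the SD, n = 5 per group. Axin2, Sp5, Lgr5 and Rhbg are high in Ex3 and MYC+Ex3 livers, Nop56 and Phlda3 in MYC and MYC+Ex3 livers, and Slc1a5 is highest in MYC+Ex3 livers.

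Against the Ex3 livers, the MYC+Ex3 livers were higher in 2249 genes (16.4%) and lower in 644 (4.7%). The mitosis list was higher in 37 of 38 genes, ribosome biogenesis in 24 of 25, and β-catenin targets in 0 of 22 with 1 lower. Ckap2 shows the spread of the Ex3 livers, at 0.643 to 22.3 RPKM with a median of 1.64. Whether the effects of the 2 alleles together differ from their sum was tested by an interaction term, and 0 of 13688 genes passed in limma (132, or 0.964%, before adjustment; no other tool was run).

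**Figure D4:**
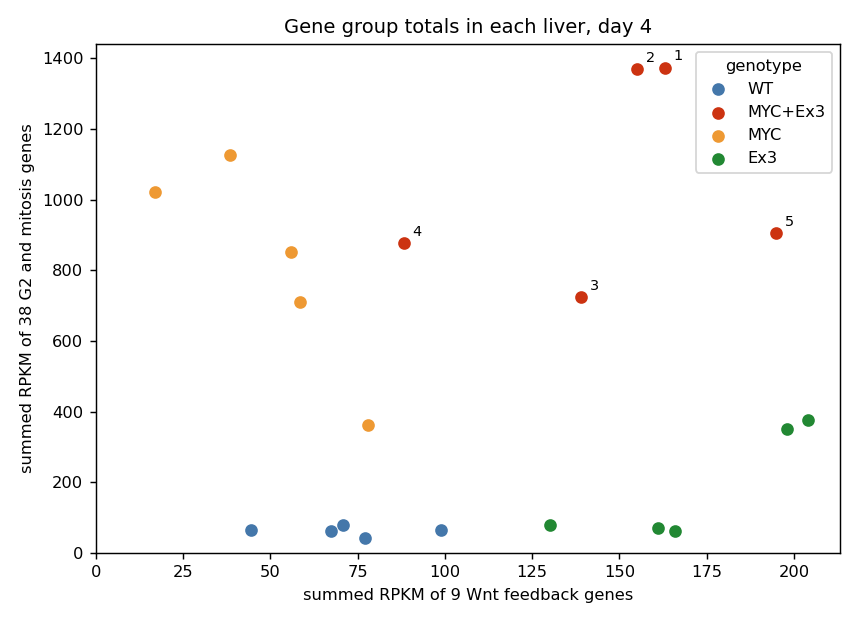
Summed RPKM of 9 Wnt feedback genes (horizontal axis) and of 38 G2 and mitosis genes (vertical axis) in each of the 20 livers, coloured by genotype, with the MYC+Ex3 livers numbered. The MYC+Ex3 livers lie at 88.2 to 195 RPKM of feedback and 723 to 1374 RPKM of mitosis genes, and liver 4 lies at the left edge of its group.

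The title of the series names Yap and Taz, the coactivators that the Hippo kinases restrain. Their own genes did not pass: Yap1 read 13.2 to 16.8 RPKM in the WT livers and 13.5 to 19.7 RPKM in the MYC+Ex3 livers (0.12, adjusted p = 0.551), and Wwtr1, which encodes Taz, 14.5 to 16.3 RPKM against 11.3 to 13.9 RPKM (-0.22, SE 0.105, adjusted p = 0.16), with no overlap. Of 18 tested YAP/TAZ targets none was higher and 2 were lower (median -0.06), namely Lats2 (-0.48, adjusted p = 0.0162), a Hippo kinase gene, and Rbms3 (-0.58, adjusted p = 0.024). Both calls were lost with a sex term, and after median-ratio rescaling 5 of the 18 were lower, beside 1212 of all 13231 genes. Among the keratin-free livers 2 of the 18 were higher and 3 lower, beside 17.1% and 11.2% of all genes. Among the males 1 was higher and none lower, and among the keratin-bearing livers none was called. The secreted targets Ctgf and Cyr61 stood at 2.19 to 5.05 against 2.33 to 13.3 RPKM (0.77, adjusted p = 0.112) and at 4.28 to 7.88 against 4.74 to 19.6 RPKM (0.81, adjusted p = 0.079). Both were called higher in the keratin-free livers, as was Yap1, and Cyr61 also with a keratin term.

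The falls were smaller than the rises. Ugt2b37, for an enzyme that joins glucuronic acid to lipids and drugs, had the largest among the genes named by rule: 10.4, 5.97, 21.5, 8.54 and 44.1 RPKM in the WT livers and 1.62, 2.62, 4.26, 3.13 and 3.2 RPKM in the MYC+Ex3 livers (-1.96, SE 0.429, adjusted p = 0.00626). Every MYC+Ex3 liver was below every WT liver. The 2 highest WT livers were female, and so was the lowest, WT liver 2. The call held with a sex term (-1.72, limma adjusted p = 0.0226) and among the males (-1.46, adjusted p = 0.0204). The call was lost among the keratin-bearing livers (-1.68, adjusted p = 0.131). Ugt2b37 has close paralogues between which reads could be split. Of 14 tested genes of the Ugt families 2 were lower and none higher, beside 5.93% of all genes lower. Among the keratin-free livers 4 were lower (11.2% of all genes), and among the keratin-bearing ones none. Beside Ugt2b37 the other was Ugt3a1 (-0.82, adjusted p = 0.0297, lost with a sex term).

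Sugct, for a mitochondrial enzyme of glutarate breakdown, fell with little spread, from 15.2, 15.3, 14.2, 15.1 and 15.2 RPKM to 5.34, 4.02, 6.85, 4.24 and 6.18 RPKM (-1.36, SE 0.146, adjusted p = 4.3e-05). Trp53inp2, for a protein of autophagy, fell from 76.9 to 89.4 RPKM to 24.9 to 35.9 RPKM (-1.36, SE 0.11, adjusted p = 4.74e-06). Igf1, the growth factor that hepatocytes secrete into blood, fell from 145, 149, 115, 141 and 159 RPKM to 54.4, 42, 86, 63.5 and 50.1 RPKM (-1.28, SE 0.17, adjusted p = 0.000207). In these 3 genes the groups did not overlap.

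P2ry4, for a nucleotide receptor, fell by 1.81 from 14.6 to 23.2 RPKM to 3.14 to 9.55 RPKM, and Lin7a, for a scaffold of cell junctions, by 1.50. Chac1, which degrades glutathione, was at 4.26 to 15.7 RPKM against 0.61 to 2.63 RPKM (-1.89, adjusted p = 0.0014). Acacb, for the acetyl-CoA carboxylase that restrains fatty acid oxidation, fell by 1.37. The list of the 12 largest was completed by B3galt1 (-1.89), Rarres1 (-1.57), Sntg2 (-1.39) and the receptor gene Gpr110 (-1.34). B3galt1 ranged from 10.4 to 85.5 RPKM in the WT livers and from 5.88 to 8.3 RPKM in the MYC+Ex3 livers. Its call was lost in both the keratin-free and the keratin-bearing livers (adjusted p = 0.118 and 0.0645), those of Rarres1, Sntg2 and Gpr110 in the keratin-bearing livers and that of Acacb among the males (adjusted p = 0.127).

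**Figure D5:**
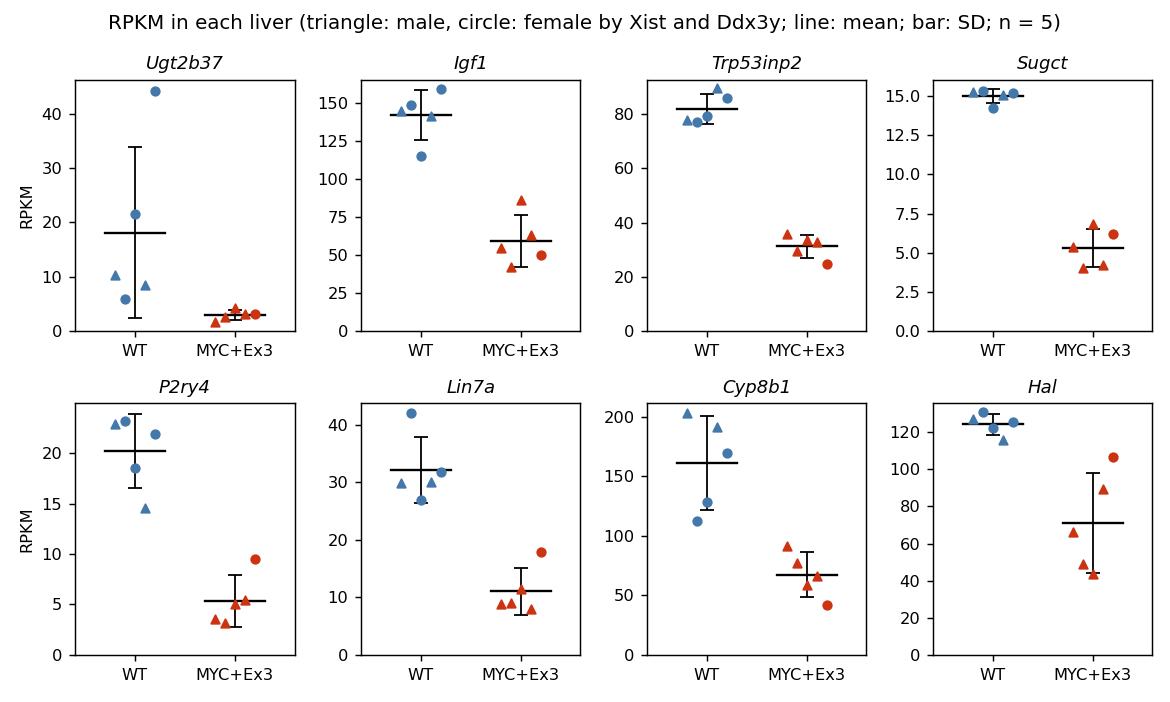
RPKM (vertical axes, linear from 0) of 8 genes called lower in each of 5 WT and 5 MYC+Ex3 livers; triangles are males and circles females as read from Xist and Ddx3y, the line is the mean and the bar the SD. All MYC+Ex3 livers lie below all WT livers in each panel, with Hal the nearest in proportion, at 107 RPKM in 1 MYC+Ex3 liver against 116 RPKM in the lowest WT liver.

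Periportal genes are those that Wnt signalling holds low near the central vein. Of 14 listed, 6 were lower and none higher (median -0.41), beside 5.93% of all genes lower. The lower count was 10 of 14 among the keratin-free livers (11.2% of all genes) and 1 of 14 among the keratin-bearing ones (1.47% of all genes). Hal, the histidine-degrading enzyme, read 127, 131, 122, 116 and 126 RPKM in the WT livers and 66, 49, 43.7, 89.7 and 107 RPKM in the MYC+Ex3 livers (-0.88, SE 0.212, adjusted p = 0.0108). Pigr, the receptor that carries IgA into bile, fell from 184 to 210 RPKM to 106 to 173 RPKM (-0.60, adjusted p = 0.00502) and Cyp2f2 from 161 to 201 RPKM to 125 to 156 RPKM (-0.36, adjusted p = 0.0187). Those 3 calls held with a sex term, but all 3 were lost in the keratin-bearing livers, and those of Hal (adjusted p = 0.0502) and Cyp2f2 (0.0885) among the males. The gluconeogenic Pck1 (-0.68) and G6pc (-0.58) and the glutaminase gene Gls2 (-0.47) were called with overlap and lost the call with that term and without 5, 7 and 8 of the single livers. Cps1, of the urea cycle, was at 171 to 236 RPKM against 125 to 204 RPKM (-0.28, adjusted p = 0.216). None of the 14 differed by the test between MYC+Ex3 and MYC livers.

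Genes of bile acid handling were lower in 6 of 17 and higher in none (median -0.31), beside 5.93% of all genes lower. With a sex term 1 of the 17 was lower, beside 3.37% of all genes. That 1 was Cyp8b1, which makes cholic acid, at 203, 113, 128, 191 and 170 RPKM in the WT livers and 91.8, 77.6, 58.9, 66.6 and 42.2 RPKM in the MYC+Ex3 livers (-1.26, SE 0.215, adjusted p = 0.00129). The bile acid importer Slc10a1 (-0.39, adjusted p = 0.0352) and the sterol exporter Abcg5 (-0.84, adjusted p = 0.0464) were among the others, and lost the call without any 1 of 7 and 6 livers. Of 26 cytochrome P450 genes of drug metabolism 2 were higher and 5 lower, beside 17% and 5.93% of all genes. Among the keratin-free livers 10 were lower (11.2% of all genes) and among the keratin-bearing ones 1 (1.47%). The higher ones were Cyp2a5, described above, and Cyp2c55, which rose from 5.98, 4.17, 2.98, 8.69 and 2.18 RPKM to 26.1, 23.2, 17.8, 30.6 and 23.7 RPKM (2.22, SE 0.271, adjusted p = 0.000116), and Cyp3a13 fell by 0.87.

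Transcription factors of hepatocyte identity were lower in 5 of 18 and higher in none (median -0.37), beside 5.93% of all genes lower. The lower count was 3 of 18 under a sex term (3.37% of all genes) and 1 among the males (2.18%). Foxa3 fell from 80.2 to 119 RPKM to 47.6 to 79.3 RPKM (-0.70, adjusted p = 0.00805) and Rxra, the partner of many nuclear receptors, from 96.5 to 114 RPKM to 62.9 to 82.5 RPKM (-0.44, adjusted p = 0.00654). Hnf4a read 141 to 195 RPKM against 124 to 159 RPKM (-0.29, adjusted p = 0.0745). None of 15 secreted or metabolic hepatocyte products was called (median -0.18; 8 were lower among the keratin-free livers, beside 11.2% of all genes), Alb among them at 244 to 303 RPKM against 177 to 301 RPKM (-0.23, adjusted p = 0.267). These products were the defining markers of the labelled tissue and were high in all 10 livers. Among the keratin-free livers the MYC+Ex3 libraries were also the deeper, at 6.55 and 7.29 M reads against 5.36 and 6.04 M in WT. The part of depth in the falls among the keratin-free livers, here and in the lists above, was not tested.

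Of 6 tested oncofetal genes, which the fetal liver and liver cancers express, 1 was called higher, near the share of all genes (17%). That gene was Gpc3, a glypican, which rose from 0.227 to 0.91 RPKM to 1.08 to 2.47 RPKM (0.88, adjusted p = 0.00516). Afp, α-fetoprotein, read 2.49 to 12.8 RPKM against 8.09 to 12.9 RPKM (0.60, adjusted p = 0.246). H19, an imprinted RNA of the fetal liver, was at 0.157 to 1.12 RPKM in the WT livers and at 0.64, 0.784, 1.94, 41.8 and 3.33 RPKM in the MYC+Ex3 livers (1.61, SE 0.721, adjusted p = 0.128). Liver 4 carried nearly all of it.

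Sex-dependent genes were not called but moved with the makeup of the groups. Of 14 female-biased liver genes none passed, with a median of -1.95 over all livers, and among the males 2 were higher with a median of 0.04. Their sum was 959 RPKM in the 1 female MYC+Ex3 liver and 1152 to 1229 RPKM in the 3 female WT livers. Of 10 male-biased genes none passed over all livers (median 0.31), while among the males 2 were lower (median -1.15). Ugt2b38 read 48.5 and 35.3 RPKM in the 2 male WT livers and 4.55 to 8.03 RPKM in the 4 male MYC+Ex3 livers (-0.91 over all livers, adjusted p = 0.522).

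Markers of other liver cells mostly did not pass. Of 11 endothelial markers 4 were lower and none higher (median -0.44), beside 5.93% of all genes lower, and none was called with a sex term. Among the 4, Kdr, the VEGF receptor, read 19.6 to 30.5 RPKM against 10.2 to 20.5 RPKM (-0.62, adjusted p = 0.0254). Wnt2, a Wnt ligand of central vein endothelium, read 3.61 to 13.7 RPKM against 2.59 to 5.6 RPKM (-0.95, adjusted p = 0.0339). The 11 macrophage markers had no call, but 8 were lower among the keratin-free livers (11.2% of all genes there), with sums of 410 to 798 RPKM in the WT livers and 467 to 871 RPKM in the MYC+Ex3 livers. Among 10 stellate and fibroblast markers Reln (-0.73, adjusted p = 0.00852) and Lrat (-0.82, adjusted p = 0.0404) were lower and Col1a1 (1.32, adjusted p = 0.0272) higher. Of 5 tested cholangiocyte markers Sox9 was lower (-0.64, adjusted p = 0.0403). No marker of monocytes and neutrophils (6 tested), lymphocytes (6), erythroid cells (2) or keratinocytes (4) was called. The calls of Wnt2, Lrat and Sox9 were each lost without any 1 of 7 livers, that of Kdr without 4 and that of Col1a1 without 3. Those of Lrat, Col1a1 and Sox9 were also lost with a sex term. The part of other cells in the falls of hepatocyte genes was not tested.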

How the data were processed

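Strand-specific libraries of total RNA were made from liver, per the labels' protocols, which name 2 sequencers without saying which library ran on which. The deposited values are RPKM per gene, made by the authors. The submitters' processing notes name TopHat2 2.0.8, TopHat, SAMtools, featureCounts 1.4.5-p1, DESeq2 and build mm9, and the role and settings of each are not given in the sources used here. The authors' deposited table also gives log2 fold changes and adjusted p-values for the comparison.

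Values were analysed as log2(RPKM + 1) with limma 3.58.1 (R 4.3.3; trended variance, Benjamini-Hochberg adjustment over all genes tested), for genes with RPKM of at least 1 in 3 libraries, called at an adjusted p under 0.05. The 10 livers entered the comparison with WT, and all 20 day-4 livers entered the contrasts with MYC and Ex3. The fit was tested on simulated data. RPKM steps gave whole reads (within 0.01 of a whole number) for 20484 of 20485 genes with any read, and limma's voom on those reads called 3211 genes. The 10 libraries held 3.73 to 7.29 M reads in genes, which sets the precision of low values.

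The members and gene lists were chosen with earlier results of these data known. The genes named by rule are the 12 largest rises and the 12 largest falls that were called, averaged 5 RPKM or more over the 10 livers and did not overlap between groups, without predicted genes, small RNAs and pseudogenes, beside Myc, Ctnnb1, Axin2 and list members with the largest changes or the role under discussion. The histone list, the voom fit, the joint sex and keratin terms and the alternatives of the interaction were added after seeing the data. Replicate numbers follow accession order and only name livers. The titles carry animal numbers, and p-values set each difference against the spread between these livers within their groups. Alternatives were another pseudocount, filter, scaling, fit over 20 livers, terms for sex or keratin RNA, subsets by these, quality weights and leaving out each liver. Tumours and 4-OHT livers were not used here. Promoters are from RefSeq (GRCm38.p6), matched by symbol for 9781 of the 13231 genes tested, and no coordinates were converted.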

Additional observations from a re-analysis of the deposited data

Results flagged for a closer look

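In each group of 5 livers, the highest or lowest liver was compared with the nearest of the others by its share of the group's whole range (Dixon's 95% value). Over 234 groups of 117 genes 15 stood apart, and chance gives about 1 in 20 groups.

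WT liver 2 was the lowest for several cell-cycle genes: Cdca3 at 0.151 RPKM (next 1.62), Kif20a at 0.287 (next 1.05), Mcm5 at 0.577 (next 2.21) and Pcna at 51.7 (next 54.7). It was the highest WT liver for Rxra, at 114 RPKM against 100 in the next. WT liver 1 was the highest for the p53 targets Mdm2, at 22.3 RPKM (next 17.5), and Bbc3, at 15.3 RPKM (next 5.92). Sugct in WT liver 3 read 14.2 RPKM (next 15.1).

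MYC+Ex3 liver 5 was the lowest of its group for 3 nucleolar genes: Pes1 at 32.1 RPKM (next 45), Dkc1 at 50.1 (next 54.4) and Ncl at 52.5 (next 63.1). MYC+Ex3 liver 4 was the lowest for Tbx3, at 6.1 RPKM (next 18.1), and the highest for H19, at 41.8 RPKM (next 3.33), and Hk2, at 2.42 RPKM (next 0.979). B3galt1 in MYC+Ex3 liver 3 read 8.3 RPKM (next 6.38).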

How the results depend on the processing

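Of 117 genes named with a test, 94 were called, and 55 of these kept direction and call in every alternative; no called gene reversed. Against 3033 calls, 1442 were made among the males, 1549 among the keratin-bearing livers, 6163 with quality weights and 962 at 2-fold or more. Leaving out 1 liver gave 2232 to 3126 calls. The contrast with MYC, at 26 calls, gave 11 with a pseudocount of 0.1, 10 with no filter and 7 to 37 with 1 liver left out. The causes were not tested, beyond the fewer livers of the subsets. Among genes that were not called, the difference changed sign in the keratin-bearing livers for Ctnnb1 (0.03), Rcl1 (0.02), Cyp2e1 (0.04) and Yap1 (-0.11), among the males for Mcm10 (-0.01), and without MYC+Ex3 replicate 2 for Cyp2e1 (0.00; -0.19 to 0.00 with 1 liver left out).

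A sex term ended the calls of 15 named genes, the males alone 23, the keratin-free livers alone 10 and the keratin-bearing livers alone 31. The genes given next are examples and not the full lists. Col1a1, Cyp3a13, Kdr, Lrat, Odc1 and Rxra lost the call among the males. Bbc3, Col1a1, Lats2, Odc1, Pck1, Rxra and Sox9 lost it in the keratin-free livers. Ccne1, Foxa3, Gpc3 and Reln lost it in the keratin-bearing livers, and Cyp8b1, Reln and Rxra in the fit of all 20 livers. Leaving out MYC+Ex3 liver 1 ended 16 calls (Abcg5, Bbc3, Bmf, Cdh2, Cyp2a5, G6pc, Gls2, Kdr, Lrat, Pck1, Pttg1, Rbms3, Slc10a1, Sox9, Ugt3a1 and Wnt2). Leaving out MYC+Ex3 liver 2 ended 15 (the same but for Cyp2a5 and Pttg1, with Col1a1), liver 3 ended 5 (Bmf, Cyp2a5, Gls2, Lrat and Sox9), liver 4 ended 6 (Abcg5, Cyp2a5, G6pc, Slc10a1, Sox9 and Wnt2) and liver 5 ended 1 (Cyp2a5). Leaving out WT liver 1 ended 8 (Cyp2a5, G6pc, Gls2, Lrat, Slc10a1, Sox9, Ugt3a1 and Wnt2), WT liver 2 ended 9 (Abcg5, Bbc3, Bmf, Col1a1, Gls2, Lrat, Pck1, Slc10a1 and Sox9) and WT liver 3 ended 8 (Abcg5, Bmf, G6pc, Gls2, Kdr, Lrat, Slc10a1 and Wnt2). WT liver 4 ended 9 (Cyp2a5, G6pc, Gls2, Lrat, Pck1, Pttg1, Sox9, Ugt3a1 and Wnt2) and WT liver 5 ended 13 (Abcg5, Bbc3, Cdh2, Col1a1, Cyp2a5, G6pc, Gls2, Kdr, Pck1, Rbms3, Slc10a1, Ugt3a1 and Wnt2). No paired analysis was possible because the labels give animal numbers that the groups do not share. Values near 0 RPKM rest on few reads.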

Other observations

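Replication-dependent histone genes, which are transcribed in S phase and whose messages lack a poly(A) tail, are visible in these total RNA libraries. The list was drawn up by symbol pattern after values had been seen. Of 57 tested genes 47 were higher in the MYC+Ex3 livers and none lower (median 1.71), beside 17% of all genes higher. Their sum was 1190 to 1558 RPKM in the WT livers and 2991 to 4740 RPKM in the MYC+Ex3 livers. Many copies share sequence, so single values are uncertain.

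Hist1h1b, for a linker histone of dividing cells, read 3.87, 3.01, 4.91, 8.26 and 7.13 RPKM in WT livers 1 to 5 and 78.1, 98.4, 43.2, 147 and 68.3 RPKM in MYC+Ex3 livers 1 to 5 (3.73, SE 0.308, limma adjusted p = 5.55e-06). MYC+Ex3 liver 4 was the highest, as it was for the replication genes. Hist1h3g rose by 3.63 (adjusted p = 3.16e-07). Genes already abundant in the WT livers did not pass: Hist1h1c at 76.6 to 119 RPKM (0.28, adjusted p = 0.177), Hist1h2bc at 78.3 to 114 RPKM (-0.01, adjusted p = 0.965) and Hist1h4h at 100 to 117 RPKM (0.11, adjusted p = 0.693).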
